A study of Mus musculus with 6 samples.

Results

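Semaphorins, ephrins, Slits and netrins are extracellular guidance cues, and plexins, Eph receptors, Robo proteins, UNC5 proteins and DCC are the cell-surface receptors that read them. The genes described here are the protein-coding genes of these families, chosen by symbol from the deposited gene table, and they come to 69 of 57010 genes. Of these 69 members, 57 had at least 10 counts in 3 or more libraries, and the same 57 were among the 14799 genes tested. RNA-seq libraries were made from hypoxic (HO) primary cardiomyocytes of newborn mice (NMCMs), 3 treated with vehicle (HO + Vehicle, V1 to V3) and 3 with the plant sterol β-sitosterol (HO + β-SITO, T4 to T6). The cells came from hearts of C57BL/6 mice 1 to 3 days old and had been separated from cardiac fibroblasts by differential adhesion, a step that can leave other heart cells in the culture. All 6 libraries share the hypoxia, and no library from normoxic cells was analysed here. The study's methods name more than one dose of β-SITO for cultured cells and give exposure times for other assays, without saying which dose and times apply to these libraries. The number of hearts or cultures behind each library was not given in the sources used here, so the p-values measure the spread between these libraries, which may be technical.

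As background, class 3 semaphorins are secreted and signal through plexins with neuropilins as co-receptors, while the semaphorins of the other vertebrate classes are held at the membrane and mostly bind plexins directly. Ephrins are membrane ligands. Ephrin-A proteins are tied to the membrane by a lipid anchor and mainly bind EphA receptors, and ephrin-B proteins span it and mainly bind EphB receptors, with signals passing into both cells. Slits bind Robo receptors, and netrins bind DCC, neogenin and UNC5 proteins. These families were first described in growing axons, and they also pattern the heart, where semaphorin-plexin signalling shapes the outflow tract and ephrin-B2 with EphB4 separates arteries from veins.

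Total counts per library were 16694734 to 18460522, and the groups overlapped. The cardiomyocyte markers were present, since 10 of 10 were tested, with a summed level of 5755 to 6794 CPM with vehicle and 4986 to 8303 CPM with β-SITO. T4 was the lowest of the 6 libraries in this sum and stood apart from T5 (8226 CPM) and T6 (8303 CPM). Of the 10 cardiomyocyte markers 4 rose, 2 fell and 4 did not pass. CPM are read counts scaled to library size, here after TMM normalization, which sets the average gene equal between libraries. Markers of other heart cells were also present. Of 8 fibroblast markers 5 rose, 2 fell (Dcn and Postn) and Pdgfra did not pass, with a summed level of 23596 to 24106 CPM with vehicle and 34828 to 35986 CPM with β-SITO, most of it from Col1a1 and Col3a1. All 8 endothelial markers were differentially expressed genes (DEGs, adjusted p under 0.05 and more than 2-fold) that rose with β-SITO, with log2 fold changes of 1.74 to 2.51 and a summed level of 210.5 to 243 CPM with vehicle and 856 to 896 CPM with β-SITO. Of 8 macrophage markers 6 rose, while Adgre1 and Ptprc did not pass. The macrophage list summed to 1089 to 1202 CPM with vehicle and 2592 to 3185 CPM with β-SITO. All 8 smooth muscle and pericyte markers rose, 4 of them as DEGs. The list summed to 1101 to 1194 CPM with vehicle and 1895 to 2149 CPM with β-SITO, most of it from Acta2 and Pdgfrb. The Schwann and neuron list had 3 of 7 markers tested. It summed to 29.9 to 34.7 CPM with vehicle and 27.8 to 33.4 CPM with β-SITO, most of it from Tubb3. None of the 5 lymphocyte markers passed the filter. All 4 mesothelial markers rose, 1 of them as a DEG, and the list summed to 44.1 to 49 CPM with vehicle and 65.4 to 78.6 CPM with β-SITO. In bulk RNA a larger number of cells of a type and more RNA per cell cannot be told apart, and the part of these cell types in the results below was not tested. Names of the HO + β-SITO libraries carry a suffix that the others lack, and any separate handling of those libraries cannot be told apart from β-SITO itself.

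The question was how guidance genes differed between hypoxic NMCMs with and without β-SITO. They were mostly higher with β-SITO. Of the 57 tested members, 21 were DEGs that were higher with β-SITO, or 36.8%, where 12.8% of all 14799 tested genes were. In the other direction 5 were DEGs that were lower, or 8.77%, against 10.1% of all tested genes. Without the fold-change cutoff, 37 members rose and 12 fell at an adjusted p under 0.05, with 8 not passing, against 33.0% of all tested genes higher and 33.8% lower. Here "rose" and "fell" refer to an adjusted p under 0.05, and "DEG" adds the 2-fold cutoff. The median log2 fold change of the tested members was 0.79, beside -0.01 over all tested genes. For 51 of the 57 members every library of 1 group lay above every library of the other (89.5%, against 70.5% of all tested genes). These counts are over the members that passed the filter, and 3 of them (Epha1, Ntn3 and Efna3) passed with no library of one group at 10 counts. Without those 3, 19 of 54 members were DEGs higher and 4 DEGs lower. Sema4g, with 1 vehicle library at 10 counts, and Efna4 and Plxnb3, with 2 each, also passed only with the β-SITO libraries. They remain among the 54, and Sema4g and Efna4 among the 19.

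**Figure D1:**
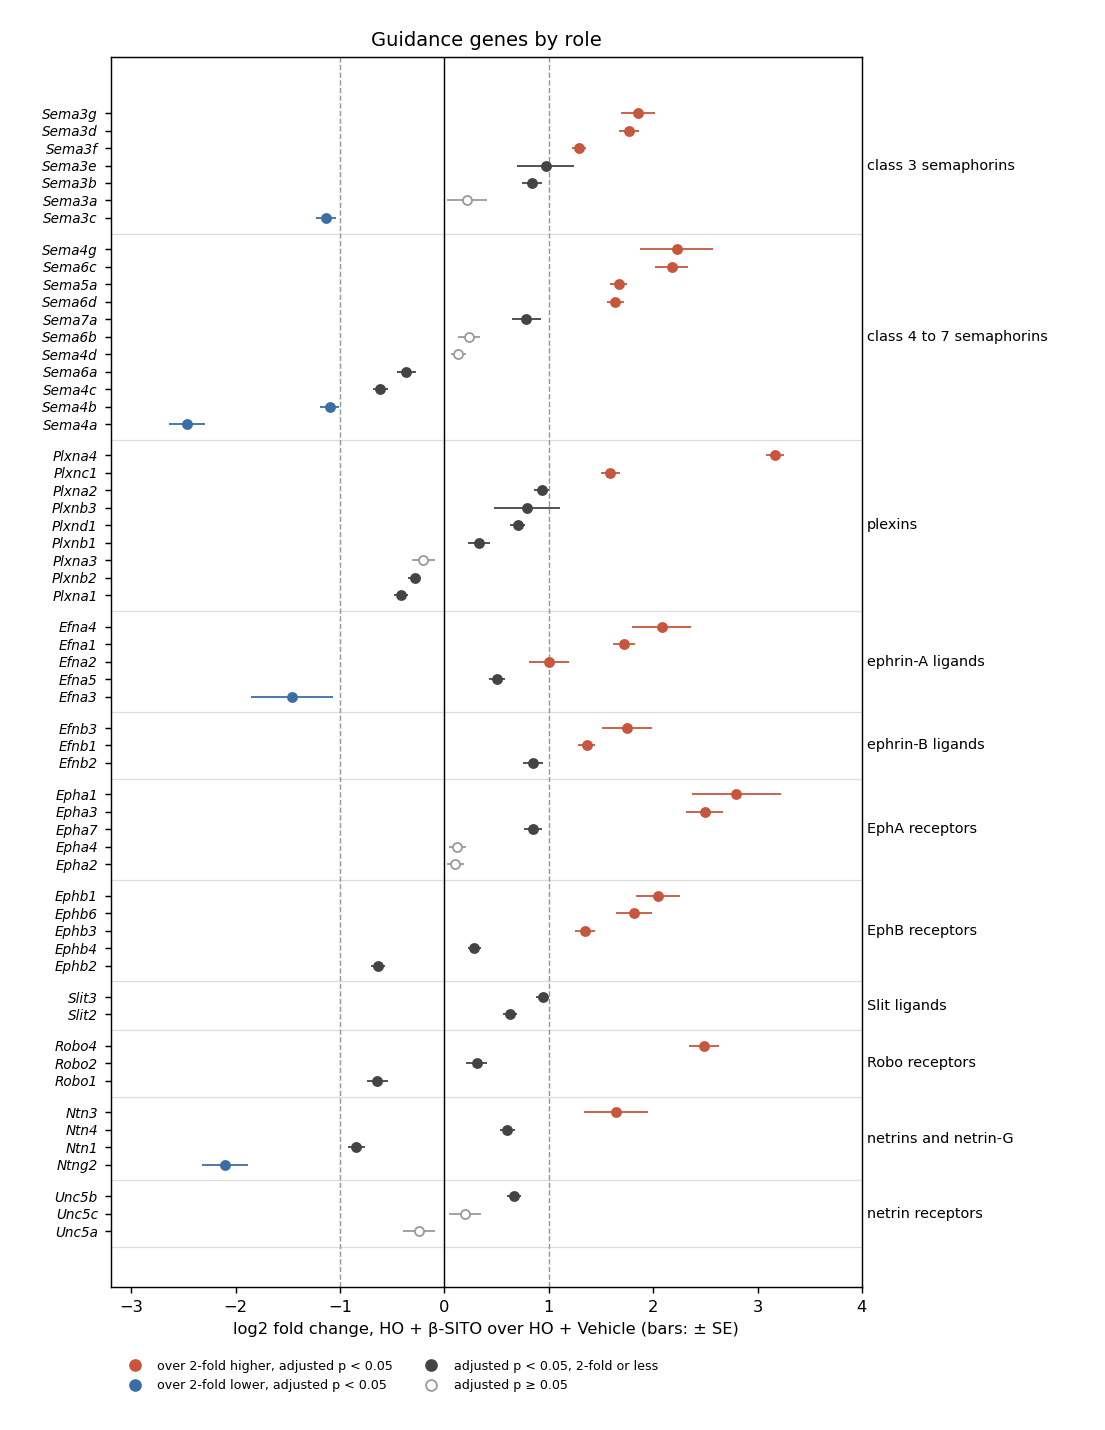
Log2 fold change of each of the 57 tested guidance genes (x axis, HO + β-SITO over HO + Vehicle, bars ± SE), grouped by role; dashed lines mark 2-fold. Most points lie to the right of 0, from -2.47 for Sema4a to 3.17 for Plxna4.

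**Figure D2:**
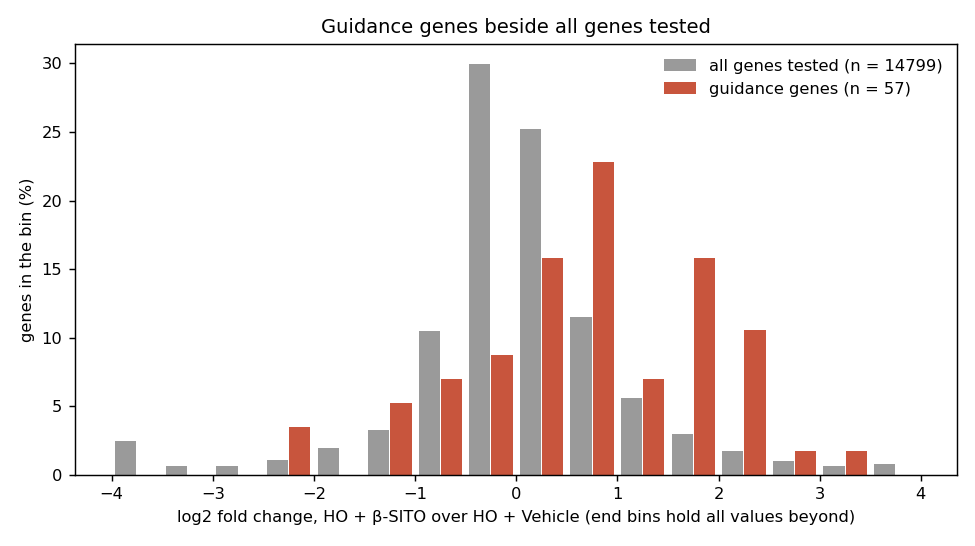
Share of genes (y axis, %) in bins of log2 fold change (x axis) for the 57 guidance genes and for all 14799 tested genes. The guidance genes have their median at 0.79 and all tested genes at -0.01.

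Split by role, 13 of 32 tested ligands were DEGs higher (40.6%) and 5 DEGs lower (15.6%), with a median log2 fold change of 0.84. Among the 25 tested receptors 8 were DEGs higher (32%) and the median was 0.67. The count of DEGs lower among them was 0, while 4 receptors fell by less than 2-fold (edgeR's quasi-likelihood test). Of all tested genes, 12.8% were DEGs higher and 10.1% DEGs lower. All 5 of the DEGs that were lower were therefore ligands, a count that was 2 with glmTreat, which tests against the 2-fold line. Whether ligands and receptors differed was not tested. The members together took 0.242% to 0.274% of all counts with vehicle and 0.355% to 0.366% with β-SITO.

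Among the class 3 semaphorins, 3 of 7 members (Sema3g, Sema3d and Sema3f) were DEGs higher and Sema3c was a DEG lower. Sema3d, a secreted cue that guides endothelial and neural crest cells, was at 19.5, 21.5 and 26.7 CPM in V1 to V3 and 83.7, 75.4 and 71.3 CPM in T4 to T6. The groups did not overlap, and Sema3d rose 3.41-fold (log2 fold change 1.77 ± 0.10 (SE), edgeR adjusted p = 3.39e-10). Sema3c, which acts on neural crest cells in the outflow tract of the heart, went the other way and was at 28.4, 27.9 and 29.8 CPM in V1 to V3 and 10.9, 14.6 and 13.7 CPM in T4 to T6. Its fall was 2.2-fold (log2 fold change -1.14 ± 0.10 (SE), edgeR adjusted p = 7.81e-08). With library size only or upper quartile normalization the log2 fold change was -0.99, just under 2-fold. The count of Sema3d divided by that of Sema3c, which needs no scaling between libraries, was 0.684, 0.771 and 0.896 in V1 to V3 and 7.65, 5.16 and 5.21 in T4 to T6. Every β-SITO library had a higher ratio than every vehicle library. This pair and the other ratios below were picked after the values were seen.

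Sema3f, which signals mainly through neuropilin-2, was at 35.8, 35 and 32.4 CPM in V1 to V3 and 80.9, 85.6 and 86.1 CPM in T4 to T6 and rose 2.45-fold (log2 fold change 1.29 ± 0.07 (SE), edgeR adjusted p = 9.66e-11). Sema3g, a class 3 semaphorin made by arterial endothelium, was at 4.23, 3.39 and 3.78 CPM in V1 to V3 and 10.7, 15.1 and 15.5 CPM in T4 to T6 and rose 3.61-fold (log2 fold change 1.85 ± 0.16 (SE), edgeR adjusted p = 7.03e-08). In both genes every β-SITO library lay above every vehicle library. Sema3b rose by less than 2-fold (log2 fold change 0.84, adjusted p = 1.38e-06). Sema3b and Sema3f lie on chromosome 9 with 72270 bases between them in the GRCm39 coordinates of the deposited table. Sema3e, a ligand that binds plexin-D1 without a neuropilin, was at 1.07, 3.07 and 1.55 CPM in V1 to V3 and 3.6, 3.99 and 3.59 CPM in T4 to T6, and its rise lay just under the 2-fold line (log2 fold change 0.97 ± 0.28 (SE), edgeR adjusted p = 0.00618). V2 was nearer to the β-SITO libraries than V1 and V3 were, and without V2 the log2 fold change was 1.5. Sema3a, the founding repulsive semaphorin, did not pass the test (log2 fold change 0.22, adjusted p = 0.329) and its groups overlapped. Without V3 it passed, at a log2 fold change of 0.49.

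Scaled by exon length (CPM per kilobase of exon), Sema3f had the highest level of the class in each group, and Sema3c dropped from 23.1% ± 0.551 to 5.1% ± 0.595 (SD, n = 3) of the summed class 3 level, while Sema3d went from 15% ± 2.39 to 25% ± 2.76. The plot of family make-up shows these shares for every library. The summed CPM of the class was 107 to 112 CPM with vehicle and 217 to 225 CPM with β-SITO.

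The neuropilins, co-receptors of the class 3 semaphorins that were listed as partners rather than members, moved in opposite directions. Nrp1 was at 65.8, 59.2 and 60.9 CPM in V1 to V3 and 124, 131 and 124 CPM in T4 to T6 and rose 2.04-fold (log2 fold change 1.03 ± 0.06 (SE), edgeR adjusted p = 7.39e-10). Nrp2 was at 639, 551 and 625 CPM in V1 to V3 and 162, 140.3 and 135 CPM in T4 to T6 and fell 4.15-fold (log2 fold change -2.05 ± 0.08 (SE), edgeR adjusted p = 3.69e-12). The 2 sets of libraries did not overlap for either gene.

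The class 4 to 7 semaphorins, which are membrane-bound, were split. Of 11 tested, 4 (Sema4g, Sema6c, Sema5a and Sema6d) were DEGs higher, and 2 (Sema4a and Sema4b) were DEGs lower. Sema4a, a semaphorin of dendritic and T cells that also acts on endothelium, showed the largest decrease of all members. It was at 14, 12 and 10.4 CPM in V1 to V3 and 1.95, 2.81 and 1.82 CPM in T4 to T6, or 221, 191 and 167 counts in V1 to V3 and 38, 50 and 35 in T4 to T6. This was a 5.52-fold fall (log2 fold change -2.47 ± 0.18 (SE), edgeR adjusted p = 6.20e-09). Sema4b was at 32.7, 28.5 and 28.6 CPM in V1 to V3 and 13.7, 15.2 and 13 CPM in T4 to T6 and fell 2.14-fold (log2 fold change -1.1 ± 0.09 (SE), edgeR adjusted p = 3.60e-08), with a log2 fold change of -0.95 with library size only. Sema4c fell by less than 2-fold (log2 fold change -0.61, adjusted p = 1.09e-06), as did Sema6a (log2 fold change -0.36, adjusted p = 0.00241). The members that fell were thus Sema4a, Sema4b, Sema4c and Sema6a. Sema4d, the plexin-B1 ligand of lymphocytes and platelets, did not pass (log2 fold change 0.13, adjusted p = 0.107). It passed with library size only, with upper quartile normalization or without V1, and its groups did not overlap.

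Sema6d, a transmembrane ligand of plexin-A1 with a role in heart tube morphogenesis, was at 55.9, 44.7 and 52.2 CPM in V1 to V3 and 146, 165 and 165 CPM in T4 to T6. It rose 3.11-fold (log2 fold change 1.64 ± 0.08 (SE), edgeR adjusted p = 6.31e-11), and its share of the class 4 to 7 level per kilobase went from 12.9% ± 0.908 to 34.5% ± 0.961 (SD, n = 3). Sema6c was at 1.96, 1.82 and 1.61 CPM in V1 to V3 and 8.17, 8.43 and 7.86 CPM in T4 to T6 and rose 4.53-fold (log2 fold change 2.18 ± 0.16 (SE), edgeR adjusted p = 7.76e-09). The 3 libraries of each group lay within a narrow band for this gene. Sema5a, which carries thrombospondin repeats beside its semaphorin domain, was at 20.1, 17.1 and 19.9 CPM in V1 to V3 and 57.2, 61 and 63.2 CPM in T4 to T6 and rose 3.18-fold (log2 fold change 1.67 ± 0.08 (SE), edgeR adjusted p = 4.51e-11). Sema4g was sparse, with 5, 6 and 10 counts in V1 to V3 and 28, 41 and 48 in T4 to T6. Its rise of 4.68-fold (log2 fold change 2.23 ± 0.35 (SE), edgeR adjusted p = 4.26e-05) therefore rests on at most 10 counts in a vehicle library. Sema7a, a lipid-anchored ligand of plexin-C1, rose by less than 2-fold (log2 fold change 0.79, adjusted p = 0.000130). Sema6b did not pass (log2 fold change 0.23, adjusted p = 0.0657). It passed with library size only, with upper quartile normalization or without V2, and its groups did not overlap.

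**Figure D3:**
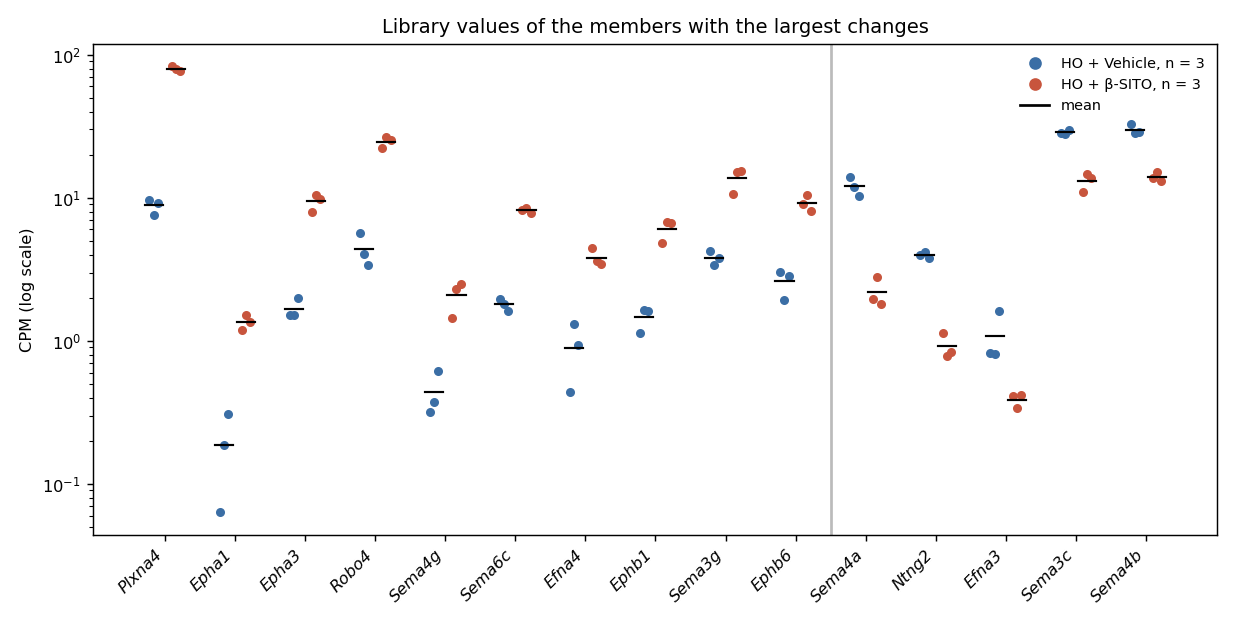
CPM (y axis, log scale) of the 10 guidance genes with the largest increase (left of the grey line) and the 5 DEGs that were lower (right of it), with 1 point per library and a bar at the mean of each group of 3. In each of the 15 genes, which were picked among the DEGs by size of change, the groups do not overlap, as in 70.5% of all tested genes. Epha1 and Efna3 passed the filter with no library of one group at 10 counts. Sema4g and Efna4 had fewer than 3 vehicle libraries at 10 counts.

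Plexins, the semaphorin receptors, included the largest increase of the whole set. Plxna4, a plexin-A that pairs with neuropilin-1, lies at chr6:32121203-32565127 (GRCm39, minus strand) and was at 9.66, 7.59 and 9.24 CPM in V1 to V3 and 82.9, 78.8 and 76.4 CPM in T4 to T6. It rose 8.99-fold (log2 fold change 3.17 ± 0.09 (SE), edgeR adjusted p = 6.25e-14), and leaving out any 1 library gave a log2 fold change of 3.07 to 3.26. Plxna1, the most abundant plexin-A gene here, was at 269.9, 227 and 237 CPM in V1 to V3 and 183, 182 and 185 CPM in T4 to T6. It fell by less than 2-fold (log2 fold change -0.41 ± 0.07 (SE), edgeR adjusted p = 5.10e-05). The ratio of Plxna4 to Plxna1 counts was 0.0358, 0.0334 and 0.0389 in V1 to V3 and 0.453, 0.432 and 0.412 in T4 to T6, again without overlap. Plxna2 rose and stayed under 2-fold (log2 fold change 0.93, adjusted p = 3.01e-08), passing 2-fold without V1 (log2 fold change 1.01). Plxna3 did not pass (log2 fold change -0.2, adjusted p = 0.124).

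Plxnc1, the receptor of Sema7a, was the other plexin among the DEGs. It was at 19.6, 17.9 and 20.8 CPM in V1 to V3 and 65.4, 56 and 53.8 CPM in T4 to T6 and rose 3.01-fold (log2 fold change 1.59 ± 0.09 (SE), edgeR adjusted p = 3.40e-10). Plxnd1, the endothelial receptor of Sema3e, was at 198, 166 and 169 CPM in V1 to V3 and 278, 298 and 291 CPM in T4 to T6 and rose 1.63-fold (log2 fold change 0.7 ± 0.07 (SE), edgeR adjusted p = 2.90e-07). Plxnb2, a receptor of class 4 semaphorins, was the most abundant member, at percentile 99 of mean CPM among all tested genes. It was at 858, 737 and 771 CPM in V1 to V3 and 662, 643 and 635 CPM in T4 to T6 and fell slightly (log2 fold change -0.29 ± 0.06 (SE), edgeR adjusted p = 0.00115), a call that was lost with library size only (adjusted p = 0.0709). Plxnb1 rose slightly (log2 fold change 0.33, adjusted p = 0.0114), a call that was lost without V2. Plxnb3 was at 0.695, 1.19 and 0.558 CPM in V1 to V3 and 1.64, 1.18 and 1.41 CPM in T4 to T6, with overlapping groups, and its rise (log2 fold change 0.79, adjusted p = 0.0388) did not pass with DESeq2 (adjusted p = 0.104) or without V1, V3, T4 or T6. Per kilobase, Plxnb2 led the plexins at 102 and 83.8 CPM per kilobase in the HO + Vehicle and HO + β-SITO groups, followed by Plxna1 (27 and 20.3) and Plxnd1 (24.3 and 39.6). Plxnd1 was below Plxna1 in every vehicle library, though the ranges across those libraries overlapped, and above it in every β-SITO library.

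**Figure D4:**
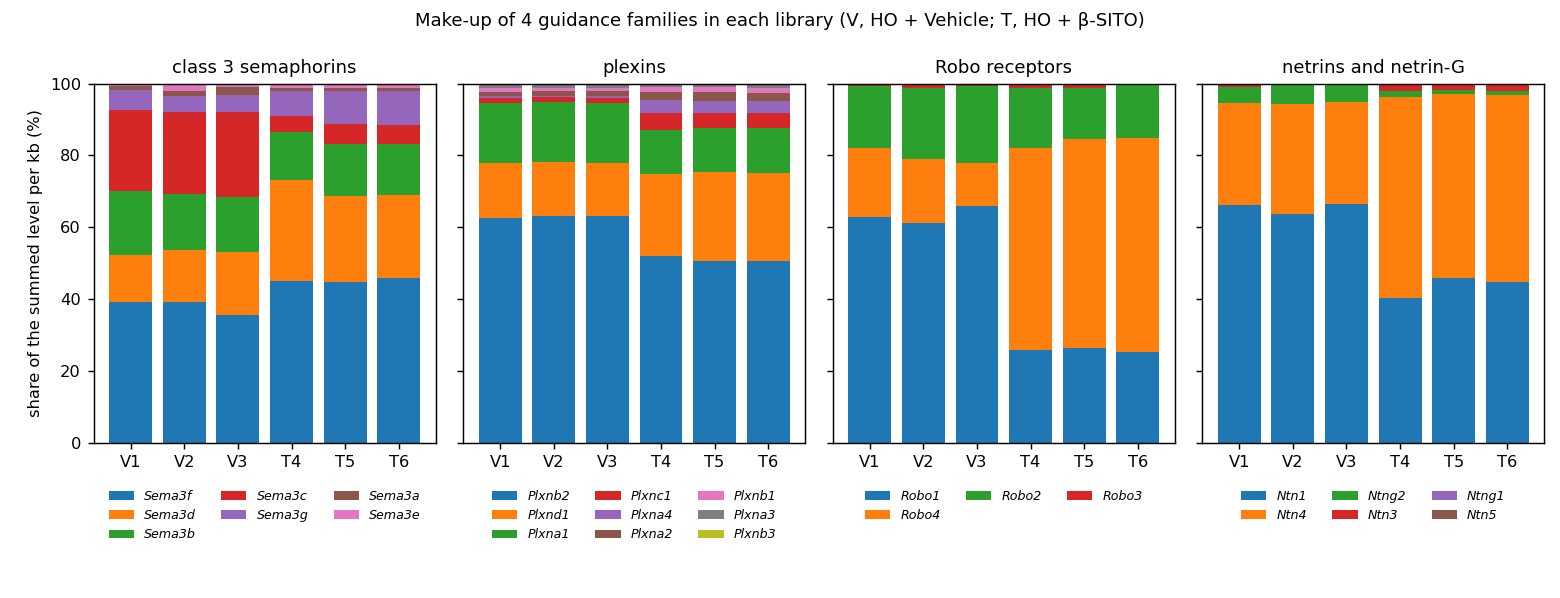
Share of the summed level per kilobase of exon (y axis, %) taken by each gene of 4 guidance families in each of the 6 libraries (x axis). Robo4 goes from 16.3% to 58.0% of the Robo level, Sema3c from 23.1% to 5.1% of the class 3 level, and Ntn1 from 65.4% to 43.6% of the netrin level.

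Ephrin-A ligands gave opposite changes in genes that lie side by side. Efna4, Efna3 and Efna1 form a cluster on chromosome 3 on the minus strand, with 10424 bases between Efna3 and Efna4 and 32756 between Efna1 and Efna3. Efna4 and Efna1 were DEGs higher and Efna3, between them, was a DEG lower. The call for Efna3 is uncertain, since it rests on 13, 13 and 26 counts in V1 to V3 and 8, 6 and 8 in T4 to T6. Efna3 passed the filter through the vehicle libraries only, and an antisense gene overlaps it. The 250 bases before the most upstream start of each of the 3 genes, from the RefSeq promoter table (build GRCm38.p6, minus strand), are shown because these neighbours differed in direction. They lie at chr3:89338029-89338278 for Efna4, chr3:89322940-89323189 for Efna3 and chr3:89280952-89281201 for Efna1, and read 5′ to 3′ with the GC box GGGCGG or its reverse complement in capitals.
Efna4: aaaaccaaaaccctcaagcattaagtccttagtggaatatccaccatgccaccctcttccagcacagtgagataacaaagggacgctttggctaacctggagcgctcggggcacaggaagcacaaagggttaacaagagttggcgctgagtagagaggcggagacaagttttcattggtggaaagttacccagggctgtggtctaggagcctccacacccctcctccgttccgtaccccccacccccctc
Efna3: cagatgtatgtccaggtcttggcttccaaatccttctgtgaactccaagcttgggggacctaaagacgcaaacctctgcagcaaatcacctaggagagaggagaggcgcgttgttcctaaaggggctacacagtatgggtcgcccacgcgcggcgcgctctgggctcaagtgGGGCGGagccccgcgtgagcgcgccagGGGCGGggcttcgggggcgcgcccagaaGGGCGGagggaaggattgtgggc
Efna1: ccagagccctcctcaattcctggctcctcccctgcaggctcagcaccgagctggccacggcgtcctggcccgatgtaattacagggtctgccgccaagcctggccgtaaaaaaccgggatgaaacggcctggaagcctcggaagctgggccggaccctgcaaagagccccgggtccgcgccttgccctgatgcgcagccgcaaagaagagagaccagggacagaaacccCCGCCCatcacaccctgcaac
In these windows Efna3 held 3 GC boxes and 19 CpG sites, Efna1 held 1 and 16, and Efna4 held 0 and 7. Any link of these sequences to the direction of change was not tested.

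Efna1, an ephrin-A that was first found as a TNF-inducible gene of endothelial cells, was at 7.9, 7.46 and 9.17 CPM in V1 to V3 and 24.3, 27.6 and 29 CPM in T4 to T6 and rose 3.3-fold (log2 fold change 1.72 ± 0.11 (SE), edgeR adjusted p = 9.78e-10). Efna4 was sparser, with 7, 21 and 15 counts in V1 to V3 and 86, 64 and 66 in T4 to T6, and rose 4.23-fold (log2 fold change 2.08 ± 0.28 (SE), edgeR adjusted p = 9.54e-06). Efna3 had 13, 13 and 26 counts in V1 to V3 and 8, 6 and 8 in T4 to T6 and fell 2.75-fold (log2 fold change -1.46 ± 0.39 (SE), edgeR adjusted p = 0.00391). It was among the least expressed members, and the antisense noncoding gene Gm15998 overlaps it with a mean of 8.17 counts beside 12.3 for Efna3, so that reads of the pair cannot be told apart without strand. Each of the 3 genes had groups without overlap, and the ratio of Efna1 to Efna3 counts was 9.62, 9.15 and 5.69 in V1 to V3 and 59.1, 81.8 and 69.8 in T4 to T6. Efna2 was at 2.21, 2.44 and 2.67 CPM in V1 to V3 and 3.96, 5.06 and 5.67 CPM in T4 to T6 and lay just over the 2-fold line (log2 fold change 1.0 ± 0.19 (SE), edgeR adjusted p = 0.000241), and without T6 its log2 fold change was 0.89. Efna5, a repulsive ephrin-A of developing nerve maps, rose by less than 2-fold (log2 fold change 0.5, adjusted p = 2.38e-05). All 4 ephrin-A genes other than Efna3 thus rose.

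The ephrin-B ligands rose in 3 of 3 genes. Efnb1 was at 17.6, 16.3 and 14.9 CPM in V1 to V3 and 42.2, 41.4 and 41.9 CPM in T4 to T6 and rose 2.57-fold (log2 fold change 1.36 ± 0.08 (SE), edgeR adjusted p = 5.02e-10). Efnb2, the ephrin of arterial endothelium, was at 28, 25.4 and 30.2 CPM in V1 to V3 and 43.4, 52.6 and 54.8 CPM in T4 to T6 and rose by less than 2-fold (log2 fold change 0.85 ± 0.09 (SE), edgeR adjusted p = 1.02e-06). Efnb3 was at 3.6, 2.82 and 2.73 CPM in V1 to V3 and 6.32, 13.1 and 11.4 CPM in T4 to T6 and rose 3.35-fold (log2 fold change 1.75 ± 0.24 (SE), edgeR adjusted p = 1.08e-05). T4 lay apart from T5 and T6 in Efnb3, though still above the vehicle libraries. Their receptors, the EphB genes, were DEGs higher in 3 of 5 cases. Ephb1 was at 1.14, 1.63 and 1.61 CPM in V1 to V3 and 4.83, 6.8 and 6.61 CPM in T4 to T6 and rose 4.14-fold (log2 fold change 2.05 ± 0.21 (SE), edgeR adjusted p = 4.65e-07). Ephb6, which lacks kinase activity, was at 3.03, 1.94 and 2.85 CPM in V1 to V3 and 9.1, 10.4 and 8.12 CPM in T4 to T6 and rose 3.52-fold (log2 fold change 1.81 ± 0.17 (SE), edgeR adjusted p = 2.05e-07). Ephb3 was at 17.6, 14.8 and 13.6 CPM in V1 to V3 and 37.5, 41.4 and 38 CPM in T4 to T6 and rose 2.54-fold (log2 fold change 1.35 ± 0.09 (SE), edgeR adjusted p = 4.93e-09). None of these 3 genes had overlapping groups.

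Ephb2 was the EphB gene that fell. It was at 61.7, 56.5 and 62.4 CPM in V1 to V3 and 39.7, 38.1 and 38.3 CPM in T4 to T6, a fall of 1.56-fold (log2 fold change -0.64 ± 0.07 (SE), edgeR adjusted p = 4.90e-07), and the ratio of Ephb3 to Ephb2 counts was 0.286, 0.262 and 0.218 in V1 to V3 and 0.944, 1.09 and 0.993 in T4 to T6. Per kilobase of exon, Ephb3 was at 2.31 and Ephb2 at 4.77 CPM per kilobase with vehicle, and Ephb3 at 5.87 and Ephb2 at 3.07 with β-SITO, so that the order of the pair turned over. Ephb4, the receptor of venous endothelium, was at 108, 96.1 and 98.6 CPM in V1 to V3 and 118, 125 and 126 CPM in T4 to T6 and rose 1.22-fold (log2 fold change 0.29 ± 0.06 (SE), edgeR adjusted p = 0.000835). It held 73.1% ± 0.406 and 68.4% ± 1.08 (SD, n = 3) of the EphB level per kilobase in the HO + Vehicle and HO + β-SITO groups.

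Of the 5 tested EphA receptors, 3 rose, the sparse Epha1 and Epha3 by more than 2-fold, and Epha2 and Epha4 did not pass. Epha3, a receptor needed for the atrioventricular cushions of the heart, was at 1.52, 1.5 and 1.98 CPM in V1 to V3 and 7.97, 10.5 and 9.84 CPM in T4 to T6 and rose 5.63-fold (log2 fold change 2.49 ± 0.18 (SE), edgeR adjusted p = 7.17e-09). Epha1 had 1, 3 and 5 counts in V1 to V3 and 23, 27 and 26 in T4 to T6 and rose 6.95-fold (log2 fold change 2.8 ± 0.43 (SE), edgeR adjusted p = 3.15e-05). Its vehicle counts are near the floor, and it overlaps the far more abundant Zyx on the other strand, whose reads cannot be told apart from its own without strand. Epha7 rose by less than 2-fold (log2 fold change 0.85, adjusted p = 4.24e-07). Epha2 had 25 ± 1.59 CPM with vehicle and 26.9 ± 1.74 CPM with β-SITO (SD, n = 3) and Epha4 had 39.1 ± 4.61 CPM with vehicle and 42.6 ± 1.37 CPM with β-SITO (SD, n = 3), with overlapping groups in each. Neither passed (log2 fold change 0.11, adjusted p = 0.270 for Epha2 and log2 fold change 0.12, adjusted p = 0.196 for Epha4), though each passed with library size only, at a log2 fold change of 0.25 for Epha2 and 0.27 for Epha4.

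Both tested Slit ligands rose and stayed under 2-fold. Slit3, the most abundant ligand of the set by CPM, was at 91.1, 79.9 and 85.6 CPM in V1 to V3 and 164, 169 and 159.9 CPM in T4 to T6 (log2 fold change 0.94 ± 0.06 (SE), edgeR adjusted p = 2.43e-09), and without V1 it lay just over 2-fold (log2 fold change 1.01). Slit2 was at 79, 70.4 and 79 CPM in V1 to V3 and 122, 119 and 113 CPM in T4 to T6 (log2 fold change 0.63 ± 0.06 (SE), edgeR adjusted p = 4.08e-07). Their receptors diverged. Robo4, the endothelial member of the family, lies at chr9:37313193-37326411 (GRCm39, plus strand) and was at 5.68, 4.07 and 3.41 CPM in V1 to V3 and 22.3, 26.4 and 25.1 CPM in T4 to T6. It rose 5.6-fold (log2 fold change 2.49 ± 0.14 (SE), edgeR adjusted p = 3.70e-10), and the highest vehicle library lay far below the lowest β-SITO library. Robo1, a receptor of many cell types in the developing heart, was at 57.8, 43.9 and 58.2 CPM in V1 to V3 and 31.7, 37.4 and 33.4 CPM in T4 to T6 and fell 1.56-fold (log2 fold change -0.64 ± 0.10 (SE), edgeR adjusted p = 4.23e-05). The ratio of Robo4 to Robo1 counts was 0.0984, 0.0929 and 0.0586 in V1 to V3 and 0.705, 0.707 and 0.752 in T4 to T6. Robo2 rose slightly (log2 fold change 0.31, adjusted p = 0.0134), a call that was lost without V2 (adjusted p = 0.0691). The summed CPM of the Robo genes was 62.9 to 81.3 CPM with vehicle and 75.8 to 85.3 CPM with β-SITO, with overlap between the groups, while the share of Robo4 and Robo1 in it moved in opposite directions.

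Robo4 is shown with its 250 bases before the start (RefSeq, GRCm38.p6, chr9:37401722-37401971, plus strand) beside those of Sema4a (chr3:88461183-88461432, minus strand, the most upstream of 4 starts). Robo4 was chosen as an endothelial receptor among the largest increases and Sema4a as the member that fell most. Plxna4, which rose most, had no matched promoter. Capitals again mark the GC box.
Robo4: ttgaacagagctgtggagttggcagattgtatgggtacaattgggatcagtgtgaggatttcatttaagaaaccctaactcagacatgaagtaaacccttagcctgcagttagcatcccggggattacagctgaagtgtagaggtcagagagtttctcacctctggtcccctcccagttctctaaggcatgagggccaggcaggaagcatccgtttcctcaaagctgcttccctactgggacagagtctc
Sema4a: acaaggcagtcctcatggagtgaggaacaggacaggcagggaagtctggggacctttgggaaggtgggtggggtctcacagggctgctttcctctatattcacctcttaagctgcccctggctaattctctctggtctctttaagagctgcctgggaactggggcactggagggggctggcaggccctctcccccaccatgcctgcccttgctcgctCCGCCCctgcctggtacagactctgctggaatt
Robo4 held 0 GC boxes and 2 CpG sites in this window, and Sema4a held 1 and 2.

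Because all 8 endothelial markers rose, 5 members known from endothelium (picked after the values were seen) were set against the summed CPM of those markers within each library. Robo4 came to 1.97% ± 0.362 with vehicle and 2.8% ± 0.178 with β-SITO (SD, n = 3). Sema3g came to 1.72% ± 0.0971 with vehicle and 1.56% ± 0.276 with β-SITO (SD, n = 3), with overlapping libraries. Sema3g was at 1.25% in T4, 1.69% in T5 and 1.76% in T6. Robo4 was higher relative to the marker sum in every β-SITO library than in every vehicle library. Plxnd1 came to 80.3% ± 1.22 with vehicle and 32.9% ± 0.399 with β-SITO (SD, n = 3). Ephb4 came to 45.7% ± 1.18 with vehicle and 14% ± 0.290 with β-SITO and Efnb2 to 12.7% ± 1.5 with vehicle and 5.72% ± 0.593 with β-SITO (SD, n = 3). These 3 genes rose in CPM and fell relative to the marker sum. The part of endothelial cells in these values was not tested, and the 5 members may also be expressed by other cells of the culture.

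Netrin ligands and receptors included members of both directions. Ntn1, the founding netrin, was at 88.4, 81.4 and 84.2 CPM in V1 to V3 and 40.6, 52.5 and 48.3 CPM in T4 to T6 and fell 1.8-fold (log2 fold change -0.85 ± 0.08 (SE), edgeR adjusted p = 2.38e-07). Ntn4, a netrin of basement membranes, rose by less than 2-fold (log2 fold change 0.6, adjusted p = 3.20e-06). By level per kilobase the order of the pair turned over, since Ntn1 went from 65.4% ± 1.51 to 43.6% ± 3.01 and Ntn4 from 29.1% ± 1.35 to 53.2% ± 2.56 (SD, n = 3) of the netrin level. Ntng2, a lipid-anchored netrin-G, was at 3.98, 4.2 and 3.78 CPM in V1 to V3 and 1.13, 0.787 and 0.833 CPM in T4 to T6 and fell 4.31-fold (log2 fold change -2.11 ± 0.22 (SE), edgeR adjusted p = 5.60e-07). A noncoding gene on the same strand overlaps Ntng2 and held more counts than it (means of 77.8 and 40.5). Ntn3 had 8, 7 and 7 counts in V1 to V3 and 29, 24 and 29 in T4 to T6 and rose 3.13-fold (log2 fold change 1.65 ± 0.30 (SE), edgeR adjusted p = 0.000203). It overlaps the more abundant Tbc1d24 on the same strand.

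Among the netrin receptors Unc5b, a repulsive netrin receptor of endothelium and other cells, was the second most abundant member by CPM. It was at 363, 312 and 316 CPM in V1 to V3 and 506, 538 and 531 CPM in T4 to T6 and rose 1.59-fold (log2 fold change 0.67 ± 0.07 (SE), edgeR adjusted p = 3.16e-07), and it took 97.3% ± 0.349 and 98.5% ± 0.0978 (SD, n = 3) of the level per kilobase of the netrin receptors in the HO + Vehicle and HO + β-SITO groups. The ratio of Unc5b to Ntn1 counts was 4.1, 3.83 and 3.75 in V1 to V3 and 12.5, 10.3 and 11 in T4 to T6, with the receptor rising as the ligand fell. Unc5a (log2 fold change -0.24, adjusted p = 0.178) and Unc5c (log2 fold change 0.2, adjusted p = 0.259) did not pass. Unc5a overlaps the more abundant Hk3 on the other strand.

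The 12 members under 10 counts in 3 libraries were Sema4f, Sema5b, Epha5, Epha6, Epha8, Epha10, Dcc, Unc5d, Ntn5, Ntng1, Robo3 and Slit1. Dcc, the attractive netrin receptor of axons, had 0, 2 and 0 counts in V1 to V3 and 2, 0 and 4 in T4 to T6. Epha6 and Epha10 had no count in any library, which allows a level of up to 0.189 CPM (3 counts in the library with the highest floor, counting error only). The highest count of any of the 12 in a library was 12, for Robo3 in T5. Slit1, the Slit of the nervous system, had 1, 3 and 2 counts in V1 to V3 and 8, 6 and 7 in T4 to T6.

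Beyond the members, a list of 43 co-receptors and cytoplasmic partners was examined, of which 40 were tested. Of these, 7 were DEGs higher (17.5%) and 4 DEGs lower (10%), near the 12.8% and 10.1% of all tested genes, and the median log2 fold change was 0.27, beside -0.01 over all tested genes. Without the fold-change cutoff, 23 partners rose (57.5%) and 10 fell (25%), against 33.0% higher and 33.8% lower over all tested genes. Rnd1, whose product binds the cytoplasmic part of plexins, fell most. It was at 289, 318 and 288 CPM in V1 to V3 and 22.5, 20.3 and 20.8 CPM in T4 to T6, a 14.1-fold fall (log2 fold change -3.82 ± 0.07 (SE), edgeR adjusted p = 6.74e-16). Lrrc4, a netrin-G ligand, fell from few counts (log2 fold change -2.76 ± 0.38 (SE), edgeR adjusted p = 1.15e-05), with 22, 30 and 25 counts in V1 to V3 and 6, 5 and 2 in T4 to T6. Nrp2, described above, was the other of the 3 largest decreases. Nck1, an adaptor of guidance receptors, fell by just over 2-fold (log2 fold change -1.04, adjusted p = 4.27e-08), and by less than 2-fold without V3 (-0.91), without T6 (-0.99) and with upper quartile normalization or library size only (-0.89 each).

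The increases were led by the CRMP family, cytosolic proteins that carry semaphorin signals to microtubules. Crmp1 was at 1.01, 1.57 and 1.18 CPM in V1 to V3 and 7.55, 7.98 and 9.21 CPM in T4 to T6 (log2 fold change 2.71 ± 0.19 (SE), edgeR adjusted p = 4.89e-09). Dpysl4 had 7, 7 and 7 counts in V1 to V3 and 51, 40 and 65 in T4 to T6 (log2 fold change 2.63 ± 0.30 (SE), edgeR adjusted p = 1.27e-06), and Dpysl5 had 4, 4 and 4 counts in V1 to V3 and 26, 16 and 34 in T4 to T6 (log2 fold change 2.39 ± 0.40 (SE), edgeR adjusted p = 9.04e-05). These 3 genes were low in every vehicle library and rested on at most 25 counts there in the case of Crmp1. Dpysl3, at a higher level, was at 161, 115 and 130.1 CPM in V1 to V3 and 294, 311 and 325 CPM in T4 to T6 (log2 fold change 1.2 ± 0.09 (SE), edgeR adjusted p = 1.94e-08), while Dpysl2 did not pass (log2 fold change -0.05, adjusted p = 0.516). The Rac activator Vav3 (log2 fold change 2.15, adjusted p = 1.62e-10) and the kinase Fyn (log2 fold change 1.09, adjusted p = 2.13e-09) were also DEGs higher, and neogenin (Neo1), a receptor of netrins, rose by less than 2-fold (log2 fold change 0.77, adjusted p = 6.79e-08). Vav3, Fyn, Neo1, Nck1, Dpysl2 and Dpysl3 were chosen for mention after their values were seen.

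**Figure D5:**
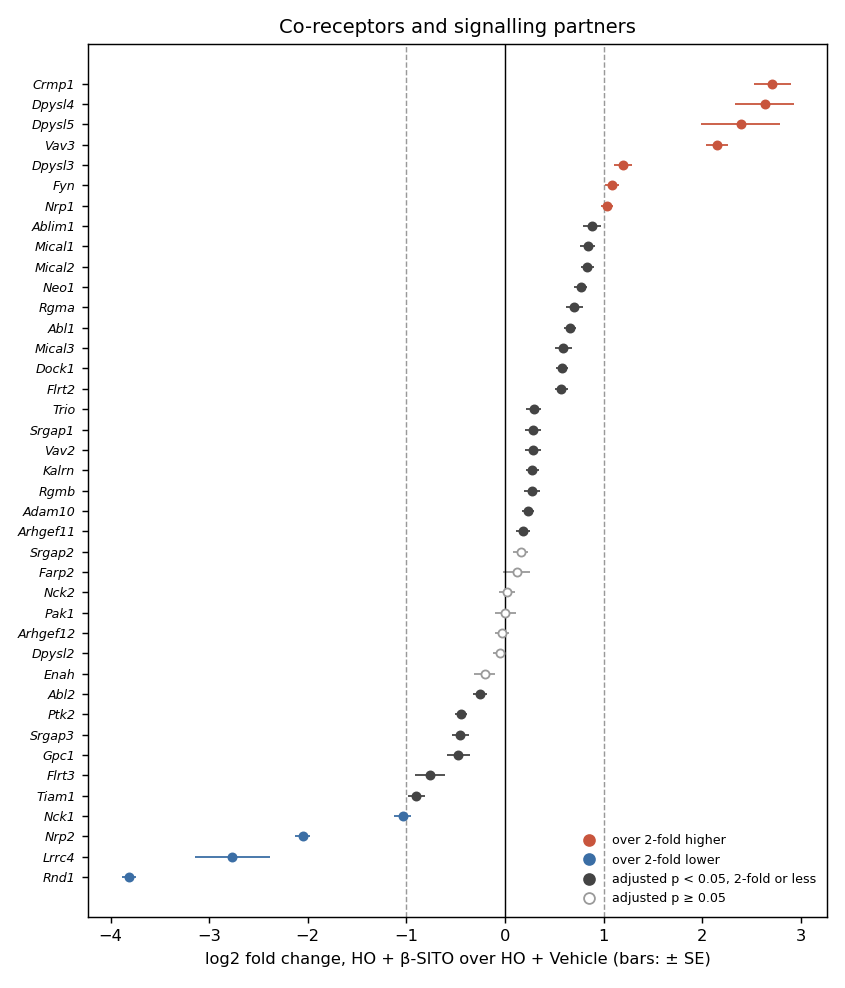
Log2 fold change (x axis, HO + β-SITO over HO + Vehicle, bars ± SE) of the 40 tested co-receptors and signalling partners, sorted by size; dashed lines mark 2-fold. Rnd1 and Nrp2 lie at -3.82 and -2.05, and Nrp1 lies just past 2-fold at 1.03.

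RefSeq promoters (250 bases before to 50 after each start, GRCm38.p6) were matched by symbol for 59 of the 69 members, with 75 starts. In the 250 bases before the start, GGGCGG on either strand was found in 52 of 75 member promoters (69.3%), against 32.7% of all 32851 promoters, and TATAAA in 2 of 75 (2.67%), against 12.4%. The 32851 promoters belong to 27025 genes and were not matched to the members by gene type or expression level. Whether the members differ from similar protein-coding genes was therefore not tested. ACGTG, the core of the hypoxia response element, was found in 12 of 75 (16%), against 16.6% of all promoters. By direction, GGGCGG was in 13 of 21 promoters of members that were DEGs higher and in 8 of 10 of those that were DEGs lower, the latter from 5 genes. ACGTG was in 4 of 21 and 3 of 10. TGGGAA, the core of the RBPJ site, was in 13 of 75 member promoters (17.3%), against 21.6% of all. Each motif was searched on both strands, none of the 4 contains another, several starts belong to the same gene, and these matches describe the sequences only.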

How the data were processed

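RNA-seq counts were analysed for 6 libraries, 3 HO + Vehicle and 3 HO + β-SITO, grouped by their labels. The authors deposited raw read counts per gene. Per the labels, FastQC, HISAT2 and featureCounts were used on GRCm39. Versions, strand setting and overlap options were not given in the sources used here, and the study's methods and the labels name different library kits. Genes overlapped by others were therefore treated as uncertain.

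Genes were kept with filterByExpr, scaled with TMM and tested with edgeR 4.0.16 (R 4.3.3), the quasi-likelihood test with Benjamini-Hochberg adjustment over all tested genes and group as the only term. DESeq2 1.42.0 (the tool of the study), limma-voom (limma 3.58.1), glmTreat, other scalings, other filters and leaving out each library were alternatives. The SE of a log2 fold change was derived from the test statistic. The scripts were tested on simulated data. An exact permutation test of 3 libraries against 3 cannot go below p = 0.1. Total counts were 16694734 to 18460522, and the biological coefficient of variation was 6.52%. Replicate pairs differed by more than sampling noise (chi-square per degree of freedom 1.96 to 9.06). Vehicle pairs gave 4.71 to 7.51. T4 gave 8.57 with T5 and 9.06 with T6, while T5 and T6 were the closest pair, at 1.96. Whether T5 and T6 came from separate cultures was not given in the sources used here. Exon lengths came from GENCODE vM21 by gene identifier, for all 69 members. Floors cover counting error only. Members and lists were chosen with earlier results of these data known.

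The rule for named genes asked for values in every library for up to 10 DEGs among the members in each direction, by size of change (only 5 were lower), the 5 most abundant, the 2 nearest to 2-fold on each side and up to 3 partners in each direction. Library values of other members were added after they were seen.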

Additional observations from a re-analysis of the deposited data

How the results depend on the processing

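All 57 members kept their direction under the 14 alternatives other than glmTreat. Under the same 14, 48 kept their side of an adjusted p of 0.05 and 50 kept their DEG call. Calls of single members were not compared with glmTreat, so calls lost there are not in these counts. The count of members that were DEGs lower was 5, against 2 with glmTreat, 3 with upper quartile normalization and 3 with library size only. Those 2 scalings moved the median log2 fold change of all genes from -0.01 to 0.14, and relative to it the members' median (0.93) was as in the analysis above. The count of DEGs higher was 20 to 24 under these and the other settings. Leaving out each library gave 21 to 23 DEGs higher, 5 DEGs lower, 36 to 38 members that rose and 12 that fell, and 7 to 8 partners higher and 3 to 4 lower. Under the other settings the partners gave 5 to 8 DEGs higher and 3 to 5 lower. With glmTreat left out, DEG calls changed for Efna2, Plxna2, Sema3c, Sema4b, Plxnb3, Slit3 and Sema3e. Of these Plxnb3, with 9 to 32 counts, was at 0.79 and passed 2-fold only without V2 (1.17). The filter on a mean of at least 10 counts was chosen after seeing the data and gave 21 DEGs higher and 5 lower. No paired analysis was possible because the labels number the groups 1 to 3 and 4 to 6 and share no number. Depth limits the sparse members, since Epha1, Efna3, Ntn3 and Sema4g had at most 10 counts in every library of the lower group.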

Other observations

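T4 differed from T5 and T6 over all genes compared (chi-square per degree of freedom 8.57 and 9.06), beside 1.96 between T5 and T6. Some guidance genes and the cardiomyocyte markers were among these differences. Efnb3 had 123 counts in T4, 233 in T5 and 219 in T6, and Sema3g had 208, 269 and 297. Without T4 the counts of members that were DEGs were 21 higher and 5 lower, the same as with it.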
